A study of Saccharomyces cerevisiae with 14 samples.

Results

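*HSP12*, *HSP26*, *HSP42*, *HSP104*, *HSP78*, *HSP60* and *HSP10* are 7 of the 5838 protein-coding genes whose mRNA reads were counted in CRAC libraries of the yeast *Saccharomyces cerevisiae*. They were chosen by name as stress-induced heat shock genes, with their reads and numbers of cDNAs in all libraries and with the difference between *new1Δ* and wildtype cells at each temperature in view. The difference between *new1Δ* and wildtype is therefore given below as a description without a test, and only the comparisons of New1-HTP with Hel2-HTP and of 20°C with 30°C were tested for these genes. In CRAC (crosslinking and analysis of cDNA), ultraviolet light joins RNA in living cells to a protein with a tag, and the pieces of RNA purified with it are sequenced. All strains derived from BY4741, a laboratory strain. The tagged groups were Hel2-HTP in wildtype cells at 20°C and at 30°C, Hel2-HTP in cells with a deletion of *NEW1* (*new1Δ*) at 20°C and at 30°C, and, at 20°C, New1-HTP in a wildtype background, and untagged BY4741 cells at each temperature served as control. Each group had 2 replicates, which gave 14 libraries, 10 of them tagged. The bait protein carried its HTP tag in every tagged strain, so that no group reports on unmodified Hel2 or New1. The labels name a medium lacking tryptophan for all cultures, whereas the methods of the study give a medium lacking tryptophan and uracil for 20°C. No culture was heat shocked, so that the response of these genes to heat was not measured here.

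The ubiquitin ligase Hel2 senses collided ribosomes. New1 is an ATPase of the ABC type, in whose absence ribosomes queue before the stop codon of mRNAs with particular last codons. Heat shock proteins are chaperones and protective proteins of the yeast cytosol and mitochondria, many of which are made in larger amounts in heat, in stationary phase or after other stresses. Hsp12 is a small membrane-associated protein that protects cells under stress. Hsp26 and Hsp42 are small heat shock proteins that hold unfolded proteins and sequester them into aggregates. Hsp104 is the ATPase that dissolves cytosolic protein aggregates, and Hsp78 is its counterpart in the mitochondrial matrix. Hsp60 and Hsp10 form the mitochondrial chaperonin in which imported proteins fold, with Hsp10 as the lid, and both are essential for growth.

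Because the study sorts mRNAs by their last codons, the ends of the coding sequences are shown first, as the last 27 bases of each gene in the RefSeq R64 genome, from 5′ to 3′, with the last sense codon in capitals and the stop codon after it.
HSP12: ggtgaagaagacccaaccaagAAGtaa
HSP26: tcttctcaagaatcgtggggtAACtaa
HSP42: aatcccaaccctacggtagaaAATtga
HSP104: atggaaattgatgatgacctaGATtaa
HSP78: gttgttgaagaggaagctgaaAAGtaa
HSP60: atgccaggaatgccaggtatgATGtaa
HSP10: atcctggctaagattgccaagGACtaa
*HSP12* and *HSP78* share the lysine codon AAG, with which 168 of the 5838 genes end (2.88%). *HSP26* and *HSP42* end in the asparagine codons AAC and AAU, which fall in a class of mildly affected last codons in the study's grouping (936 genes, 16%). *HSP104* ends in GAU and *HSP10* in GAC, both for aspartate, and *HSP60* in the methionine codon AUG. None of the 7 ends in AAA, AGG or CGU, the codons of the strongly affected class (674 genes, 11.5%). *HSP42* has the stop codon UGA and the other 6 have UAA.

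The 7 genes lie on 6 chromosomes of the R64 assembly, each as 1 coding exon that overlaps no other protein-coding gene. *HSP12* (YFL014W) spans 107256 to 107585 on the plus strand of chromosome VI. *HSP26* (YBR072W) spans 382030 to 382674 on the plus strand of chromosome II. *HSP42* (YDR171W, 806621 to 807748, plus strand) and *HSP78* (YDR258C, 971808 to 974243, minus strand) are both on chromosome IV. *HSP104* (YLL026W, 88623 to 91349, plus strand) and *HSP60* (YLR259C, 663284 to 665002, minus strand) are on chromosome XII. *HSP10* (YOR020C) spans 370524 to 370844 on the minus strand of chromosome XV. The counted features include the untranslated regions and ranged from 457 nt for *HSP10* to 2985 nt for *HSP104*.

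The tagged libraries held between 330299 and 1433090 sense reads on the 5838 genes, from 3.02 to 11.3 reads per cDNA, so that several reads share a cDNA, and limits and intervals cover counting error only. Values are given as reads or as CPM, the reads of a gene scaled to a common total of reads on all genes of that library (counts per 1e6). The untagged libraries held 356 and 1793 reads at 20°C, too few for a background, and 310279 and 23629 at 30°C. Reads of *NEW1* matched the labels of the Hel2-HTP strains, with 0, 0, 0 and 7 in the 4 *new1Δ* libraries and 105 to 1192 in the 4 wildtype ones. The New1-HTP libraries, labelled wildtype, had 1 and 143 reads of *HEL2* (YDR266C). *HEL2* reads cannot settle the label of New1-HTP replicate 1, since Hel2-HTP *new1Δ* replicate 2 at 20°C, which carries *HEL2*, had 0. The tagged 20°C libraries lost mRNAs more often than those at 30°C. In the tagged libraries, among mRNAs that reached 100 reads in one replicate, 8.08% to 27.8% were at 3 reads or fewer in the other replicate at 20°C, and 0.842% to 5.83% at 30°C. The 2 temperatures also differed in beads, RNase digestion, gel steps, primers and purification, so the effect of temperature and that of the preparation cannot be told apart. Reads were not set against the amount of each mRNA, so that more of an mRNA and more bait on each mRNA cannot be told apart.

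*HSP12* was higher in all 4 *new1Δ* libraries than in any wildtype library of the same bait. At 20°C the Hel2-HTP libraries of *new1Δ* cells gave 4659 and 2779 reads of this mRNA and those of wildtype cells 753 and 1734. As shares of each library these were 6809 and 8414 CPM in *new1Δ* and 1010 and 1210 CPM in wildtype. Both *new1Δ* libraries were above both wildtype libraries, and the means of 7611 ± 1134 and 1110 ± 141 CPM (SD, n = 2 each) were 6.86-fold apart. The fold was nearly the same in the 2 pairs of replicates, 6.74 and 6.95. At 30°C the *new1Δ* libraries gave 6989 and 5039 reads and the wildtype libraries 50 and 383, or 7177 and 12817 CPM against 58.9 and 1045 CPM. Here too the groups did not overlap, and the means of 9997 ± 3988 and 552 ± 697 CPM (SD, n = 2 each) were 18.1-fold apart. The size of the 30°C difference rested on the wildtype library of replicate 1, in which *HSP12* had 50 reads from 4 cDNAs. The pair with that library gave a 122-fold ratio of CPM, and the pair of replicate 2 gave 12.3-fold.

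Reads of *HSP12* came from many molecules in *new1Δ*. Its distinct cDNAs numbered 609 and 317 in the *new1Δ* libraries at 20°C, where wildtype had 72 and 225. At 30°C they numbered 528 and 1507, where wildtype had 4 and 123. The untagged libraries gave 54 reads from 3 cDNAs (174 CPM) and 0 reads at 30°C, and 1 and 0 reads at 20°C. The wildtype Hel2-HTP library of replicate 1 at 30°C, with 58.9 CPM, thus lay below the untagged library of that replicate, whereas all other tagged libraries were above it.

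**Figure D1:**
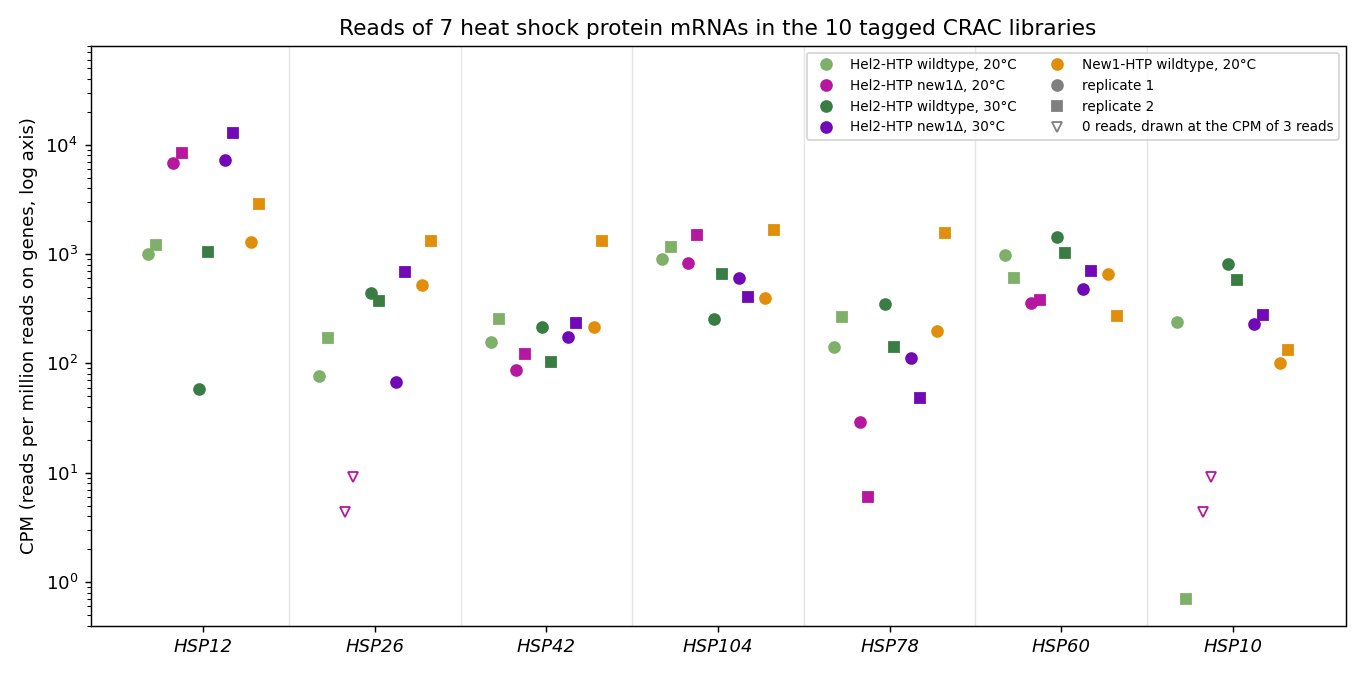
Reads of each mRNA in the 10 tagged libraries, as CPM on a log axis. Each marker is 1 library (circles replicate 1, squares replicate 2), and open triangles mark libraries with 0 reads at the CPM that 3 reads would give. *HSP12* lies between 6809 and 12817 CPM in the 4 *new1Δ* libraries and between 58.9 and 1210 CPM in the 4 wildtype Hel2-HTP libraries, while *HSP26* and *HSP10* have 0 reads in *new1Δ* at 20°C.

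Per kb of the counted feature, *HSP12* was among the densest mRNAs in *new1Δ* cells. Ranked over all 5838 genes by CPM per kb, it was in place 5 and 4 in the *new1Δ* libraries at 20°C and in place 5 and 2 at 30°C. In wildtype Hel2-HTP libraries it was in place 47 and 36 at 20°C and in place 1145 and 65 at 30°C, and in New1-HTP libraries in place 42 and 12. By the gain in mean CPM from wildtype to *new1Δ*, *HSP12* came 10th at 20°C and 4th at 30°C of the 5838 genes.

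*HSP12* differed in its last codon from most genes called higher in *new1Δ*. Of the 33 genes called higher at 20°C in edgeR's fit over all genes, 26 ended in AAA, AGG or CGU, as did 21 of the 24 at 30°C. Of all 4831 genes tested, 602 ended in these codons. The members were not taken out of these counts. The median log2 fold change of the 130 genes tested that end in AAG was −1.45 at 20°C and 0.25 at 30°C, against −1.12 and 0.13 over all 4831 genes tested. By the lowest of its log2 ratios of shares over the 4 pairs, 2.75, *HSP12* was in place 12 of 5838 genes, and the next of the 168 genes ending in AAG stood at 0.80. These values belong to the contrast on which *HSP12* was chosen and are a description. *HSP78*, the other member ending in AAG, was low in *new1Δ* (below). By fitted fold change alone, *HSP12* was in place 18 of the AAG genes at 20°C and in place 4 at 30°C.

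**Figure D2:**
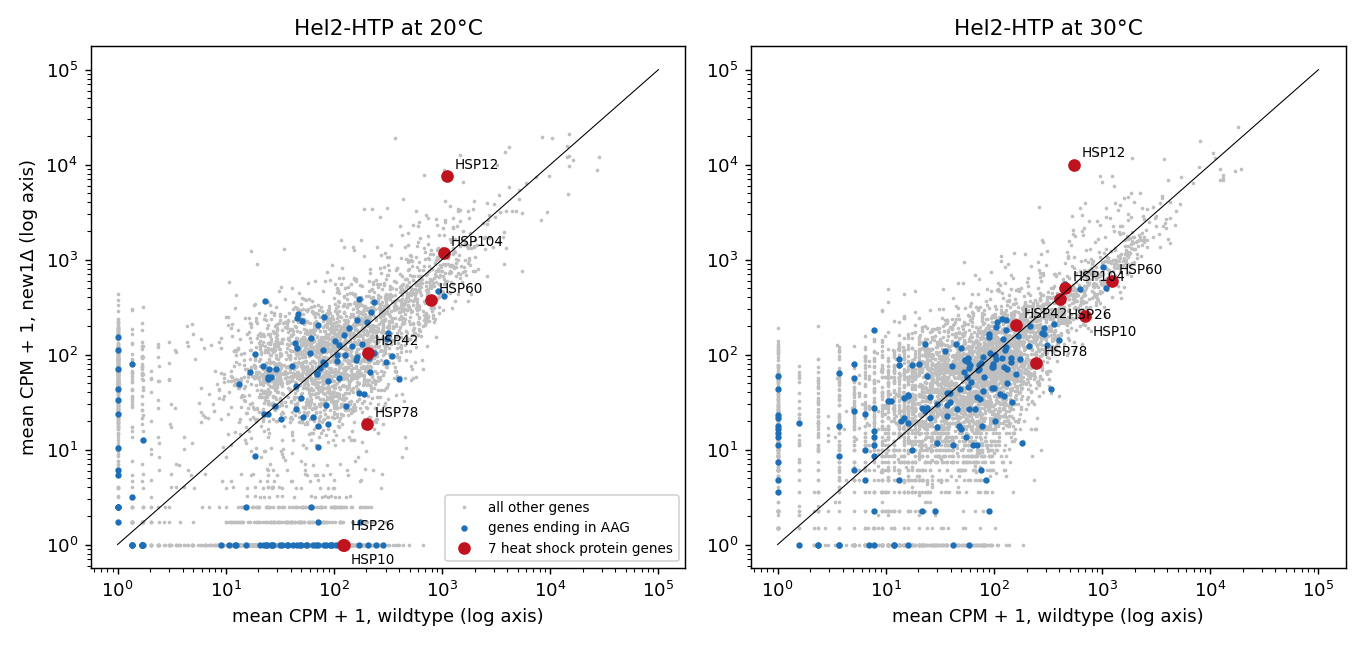
Mean CPM + 1 of each gene in wildtype (x axis) and *new1Δ* (y axis) Hel2-HTP libraries at 20°C and 30°C, n = 2 per strain, on log axes, with the line of equal values. Each point is 1 gene, blue points are genes ending in AAG and red points the 7 heat shock protein genes. *HSP12* lies at 1110 against 7611 CPM at 20°C and at 552 against 9997 CPM at 30°C, above the line in both panels.

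The other 6 mRNAs showed no rise of this kind, and their patterns differed. *HSP26* was found in wildtype at 20°C with 57 and 242 reads (76.5 and 169 CPM) and with 0 reads in both *new1Δ* libraries, where 3 reads would have been 4.38 and 9.08 CPM. The mean wildtype share of *HSP26*, 123 CPM, was 18.2-fold the mean of these limits, 6.73 CPM. These *new1Δ* libraries held 6.83 and 7.08 reads per cDNA, so a few missed molecules could exceed 3 reads. The fold is therefore not a lower bound. At 30°C the groups overlapped, at 67.8 and 692 CPM in *new1Δ* (66 and 272 reads) and 444 and 371 CPM in wildtype (377 and 136 reads). The difference went in opposite directions in the 2 pairs at 30°C, with log2 ratios of shares of −2.69 and 0.89. The 0 reads at 20°C stand beside a frequent loss of mRNAs from these libraries (27.8% and 8.24% of mRNAs that reached 100 reads in one *new1Δ* replicate were at 3 reads or fewer in its partner), whose part in the result was not tested.

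*HSP42* gave 116 and 364 wildtype reads at 20°C and 59 and 40 *new1Δ* reads, which are 156 and 254 against 86.2 and 121 CPM. At 30°C the wildtype libraries held 217 and 104 CPM (184 and 38 reads) and the *new1Δ* libraries 175 and 234 CPM (170 and 92 reads), and the groups overlapped. The log2 ratios of shares were −0.84 and −1.04 at 20°C and −0.31 and 1.15 at 30°C. After division by the median of each pair, the second ratio at 20°C turned to 0.93, so that the direction depended on the scaling. In that pair, 2241 of 4296 genes had 0 reads in *new1Δ*, so that its median depended on the pseudocount. The divided ratio of *HSP42* was 1.77 with a pseudocount of 0.1 and −0.04 with 5, and no direction is drawn from it.

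*HSP104*, for the cytosolic disaggregase, had the second highest reads of the 7 at 20°C in *new1Δ*. It gave 671 and 1679 wildtype reads and 567 and 497 *new1Δ* reads, or 900 and 1172 against 829 and 1505 CPM, and the groups overlapped. At 30°C its 253 and 652 CPM in wildtype (215 and 239 reads) and its 598 and 404 CPM in *new1Δ* (582 and 159 reads) overlapped as well. The untagged libraries at 30°C gave 146 reads of *HSP104* from 6 cDNAs (471 CPM) and 0 reads. The wildtype library of replicate 1 and the *new1Δ* library of replicate 2 lay below those 471 CPM. The ratios of the 2 pairs had opposite signs at each temperature, −0.12 and 0.36 at 20°C and 1.23 and −0.69 at 30°C. Both were positive at 20°C once divided by the pair's median (0.15 and 2.33). The second of these values also depended on the pseudocount, and was 1.25 with a pseudocount of 5.

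*HSP78*, for the mitochondrial disaggregase, was lower in *new1Δ* in all 4 pairs on both scales. It gave 105 and 381 wildtype reads at 20°C and 20 and 2 *new1Δ* reads, or 141 and 266 against 29.2 and 6.06 CPM, and the groups did not overlap. At 30°C it stood at 349 and 142 CPM in wildtype (296 and 52 reads) and at 113 and 48.3 CPM in *new1Δ* (110 and 19 reads), again without overlap. The log2 ratios of shares were −2.21 and −4.88 at 20°C and −1.62 and −1.51 at 30°C, and −1.94, −2.91, −1.66 and −1.23 after division by the median. These values rest on few molecules, since the *new1Δ* libraries held 4 and 2 cDNAs of *HSP78* at 20°C and 6 in each at 30°C, counts in which antisense reads are included.

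The chaperonin mRNAs *HSP60* and *HSP10* had fewer reads in *new1Δ*, *HSP10* at a level close to background. At 20°C, *HSP60* stood at 975 and 599 CPM in wildtype (727 and 859 reads) and at 360 and 381 CPM in *new1Δ* (246 and 126 reads). At 30°C the values were 1430 and 1015 CPM (1214 and 372 reads) and 481 and 697 CPM (468 and 274 reads). The groups did not overlap at either temperature. The log2 ratios of shares were −1.44 and −0.64 at 20°C and −1.57 and −0.54 at 30°C. Once divided by the median of its pair, the second ratio at 20°C was 1.33, and 0.28 with a pseudocount of 5. *HSP10* stood at 804 and 581 CPM in wildtype (683 and 213 reads) and at 229 and 275 CPM in *new1Δ* (223 and 108 reads) at 30°C. The untagged libraries at 30°C gave 92 and 5 reads of *HSP10*, which are 297 and 212 CPM and overlap the *new1Δ* libraries. Untagged libraries gave 60 and 4 reads of *HSP60* (193 and 169 CPM), below all tagged libraries at 30°C. At 20°C, *HSP10* gave 179 and 1 wildtype reads and 0 in both *new1Δ* libraries, so the difference rests on 1 wildtype library and no fold is given.

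**Figure D3:**
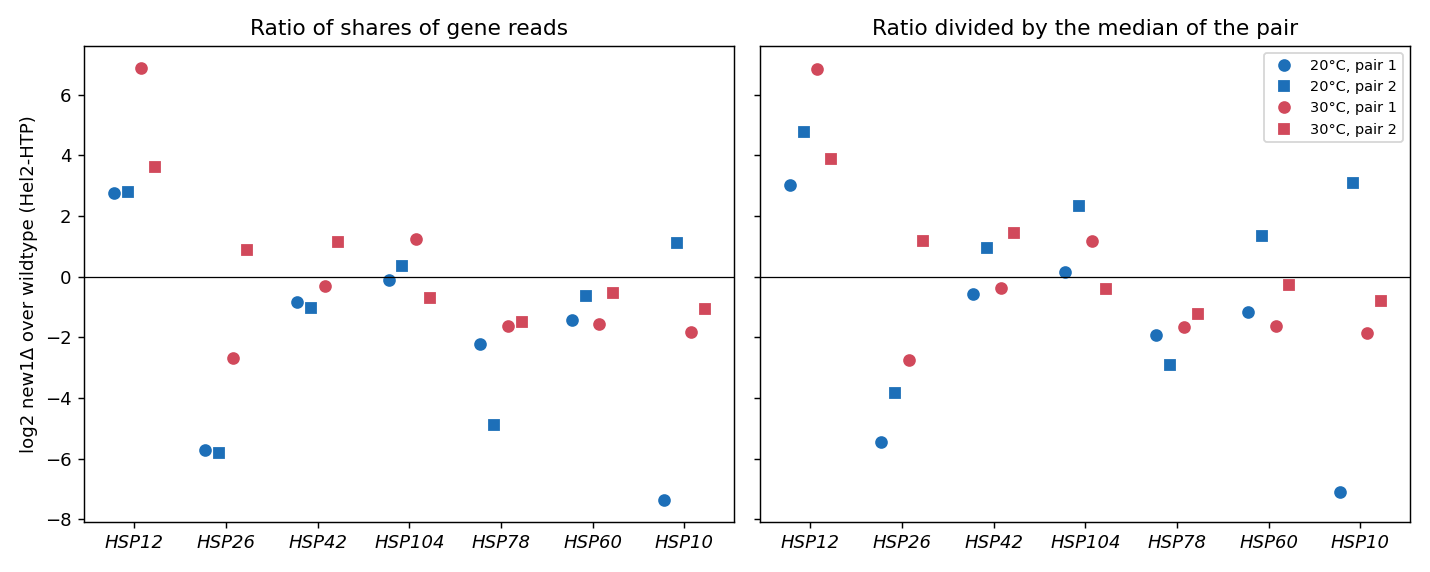
Log2 ratio of *new1Δ* over wildtype Hel2-HTP reads for the 2 pairs of replicates at each temperature, with a pseudocount of 1 read, as the ratio of shares of gene reads (left) and once divided by the pair's median (right). Each marker is 1 pair. *HSP12* is above 0 in all 4 pairs (2.75 to 6.90 on the left) and *HSP78* below 0 in all 4. In the second pair at 20°C the division moves *HSP42* and *HSP60* from below to above 0, by a median that depends on the pseudocount.

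A fit over all genes put these differences beside the rest of the transcriptome. At 20°C, 0.683% of 4831 genes were called higher in *new1Δ* and 0.704% lower at an adjusted p of 0.05 (edgeR's quasi-likelihood test, 33 and 34 genes). At 30°C, 24 genes (0.497%) were called higher and 0 (0%) lower. There, 106 genes in either direction stood at an unadjusted p under 0.05 in edgeR's test, and DESeq2 called 60. Since the members were chosen on this contrast, their own calls are not given. Without the replicate pairs as a block, the calls over all genes fell to 20 at 20°C and to 5 at 30°C. The fitted log2 fold change of *HSP12* was 2.63 at 20°C and 5.51 at 30°C, where the log2 ratios of shares of the pairs were 6.9 and 3.61. Each SE given with a fitted value is the absolute log2 fold change divided by the square root of edgeR's F statistic. It draws on other genes too and is not the spread between the pairs. At 30°C the fitted value of *HSP12* was 3.89 without replicate 1 and 7.08 without replicate 2. The median over all genes was −1.12 at 20°C, so that a gene at 0 there stood above the typical gene, and 0.13 at 30°C. The median of the 7 members was −1.19 at 20°C and −0.64 at 30°C. At 20°C, *HSP42* was at −1.10 (SE 1.92), *HSP104* at −0.02 (SE 0.74), *HSP78* at −3.89 (SE 2.78) and *HSP60* at −1.19 (SE 0.76), so that *HSP42* and *HSP60* lay within 0.1 of the median of all genes and *HSP104* above it. At 30°C the fitted values were −0.64 (SE 1.73) for *HSP26*, 0.69 (SE 1.96) for *HSP42*, 0.53 (SE 0.78) for *HSP104*, −1.33 (SE 2.28) for *HSP78*, −0.80 (SE 0.77) for *HSP60* and −1.19 (SE 1.4) for *HSP10*.

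Summed over the family, the mRNAs took a larger share of Hel2-HTP reads in *new1Δ*, and *HSP12* carried that gain. All 7 together summed to 3498 and 3670 CPM in wildtype and to 8113 and 10427 CPM in *new1Δ* at 20°C. At 30°C they summed to 3556 and 3910 CPM and to 8839 and 15167 CPM. Without *HSP12*, the other 6 had 2488 and 2460 CPM in wildtype and 1304 and 2013 CPM in *new1Δ* at 20°C. At 30°C they had 3497 and 2865 CPM in wildtype and 1662 and 2350 CPM in *new1Δ*. The sum of the 6 was thus lower in both *new1Δ* libraries at each temperature while the sum of all 7 was higher. Over all genes, the median log2 ratio of shares was −0.27 and −1.97 in the pairs at 20°C and 0.05 and −0.28 at 30°C. The median of −1.97 depended on the pseudocount, and was −2.84 with 0.1 and −0.88 with 5. Against the medians, the sum of the 6 fell less in replicate 2 at 20°C and more in replicate 1 at both temperatures.

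**Figure D4:**
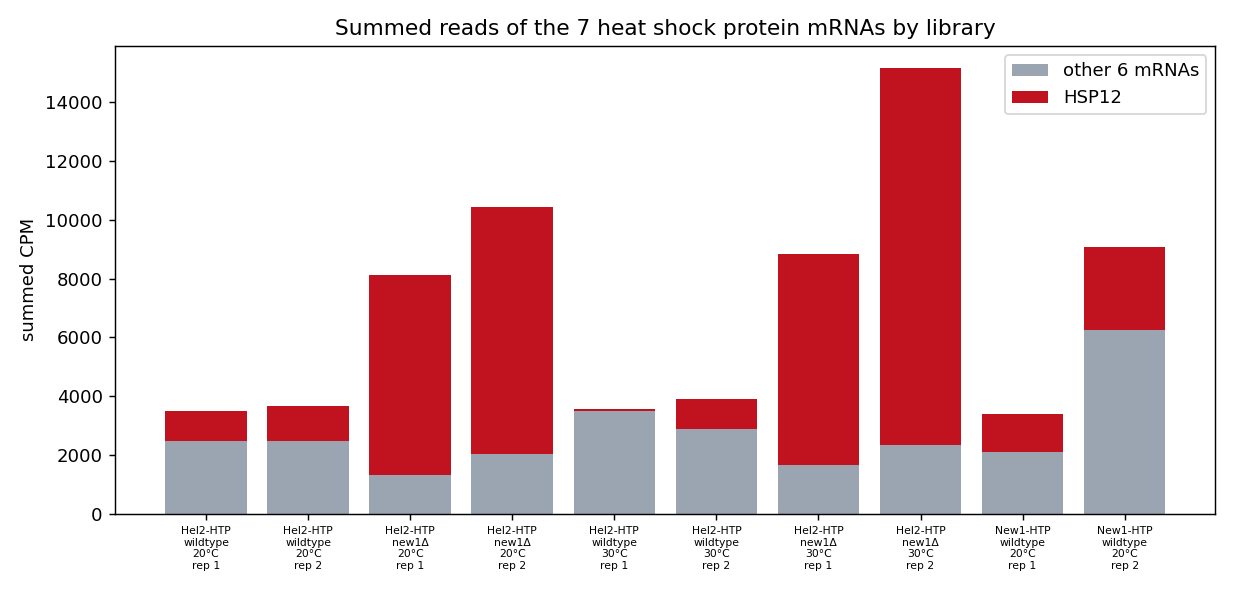
Summed CPM of the 7 mRNAs in each of the 10 tagged libraries, with *HSP12* in red on top of the other 6 in grey, 1 bar per library. *HSP12* makes up most of the bar in the 4 *new1Δ* libraries, and the grey part is largest in New1-HTP replicate 2 (6237 CPM).

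The order of the members by mean CPM per kb differed between groups. Neighbours are called apart here where the values of their libraries did not overlap. In wildtype Hel2-HTP libraries at 20°C, *HSP12* led with 2067 ± 263 and stood apart from *HSP60* with 401 ± 136 (SD, n = 2 each), whereas each further pair of neighbours overlapped, down to *HSP78* with 80.2 ± 34.8. In wildtype at 30°C, *HSP10* led with 1516 ± 345, and *HSP12* (1028 ± 1299) overlapped both it and *HSP60* (623 ± 150). *HSP26* followed with 474 ± 60, apart from *HSP104* but next to *HSP60*, whose lower library (518) was at about the level of the higher library of *HSP26* (517), and *HSP104*, *HSP42* and *HSP78* came last, between 152 and 96.7. In *new1Δ*, *HSP12* was first and apart at both temperatures, with 14174 ± 2113 at 20°C and 18616 ± 7427 at 30°C. The next were *HSP104* with 391 ± 160 at 20°C and *HSP10* with 551 ± 70.7 at 30°C. *HSP78* was the lowest member with reads in *new1Δ*, with 6.95 ± 6.46 at 20°C and 31.8 ± 18 at 30°C. In New1-HTP libraries *HSP12* led with 3852 ± 2070, apart from *HSP26* with 1071 ± 657, and the remaining neighbours all overlapped.

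The reads recovered with the 2 baits were compared between New1-HTP and Hel2-HTP in wildtype cells at 20°C, without a usable background of untagged cells at that temperature. This comparison uses the same wildtype Hel2-HTP libraries as the one with *new1Δ*. The 2 baits also differed in the amount of beads and the length of RNase digestion. *HSP12* had 830 and 2905 reads with New1-HTP, or 1282 and 2854 CPM, above the 1010 and 1210 CPM of Hel2-HTP. *HSP26* had 337 and 1342 reads (521 and 1319 CPM) against 76.5 and 169 CPM, the largest fitted difference of the 7, with a log2 fold change of 2.81 (SE 1.13). In edgeR's quasi-likelihood test, the difference of *HSP26* had an unadjusted p of 0.037 and an adjusted p = 1. The small heat shock protein mRNA *HSP42* had 140 and 1329 reads (216 and 1306 CPM) against 156 and 254 CPM, and *HSP78* had 129 and 1588 reads (199 and 1560 CPM) against 141 and 266 CPM. The groups of *HSP42* and *HSP78* overlapped, and both were far higher in New1-HTP replicate 2 than in replicate 1. Without that library, the log2 fold change of *HSP42* went from 1.84 (SE 1.11) to −0.10 and that of *HSP78* from 2.05 (SE 1.28) to −0.22. *HSP104* had 258 and 1680 reads (399 and 1651 CPM), *HSP60* had 430 and 275 (664 and 270 CPM) and *HSP10* had 65 and 134 (100 and 132 CPM) with New1-HTP. Each of these 3 overlapped its Hel2-HTP values, with log2 fold changes of −0.07 (SE 0.69), −0.85 (SE 0.75) and −0.02 (SE 3.02), of which that of *HSP104* turned positive under other scalings and that of *HSP10* was 6.88 without Hel2-HTP replicate 1.

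None of the 7 members passed the test between baits, where 0.0482% of 4149 genes did (adjusted p = 1 for each member, edgeR's quasi-likelihood test). The 2 genes called were *ADH1* and *ADH2*, paralogs whose reads are uncertain because the counting may divide them between the copies. At an unadjusted p under 0.05 stood 1 of the 7 (*HSP26*) and 2.1% of the genes, and DESeq2 called 0 members, with 2 at an unadjusted p under 0.05. The log2 fold change of *HSP12* was 0.83 (SE 0.43), and the median of the members was 0.83 against 0.11 over all genes. Without New1-HTP replicate 2, the value of *HSP12* was 0.04 and that of *HSP26* 1.89.

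The effect of temperature on Hel2-HTP reads was compared in wildtype cells, with the preparation of the libraries in the same contrast. *HSP12* had 1010 and 1210 CPM at 20°C and 58.9 and 1045 CPM at 30°C, a log2 fold change of 0.92 (SE 0.81). This value rested on single libraries. It was −0.06 without replicate 1 at 30°C and 4.35 without replicate 2 at 30°C (adjusted p = 3.4e-07 in edgeR's quasi-likelihood test with 1 library left in that group). *HSP26*, with 76.5 and 169 CPM at 20°C and 444 and 371 CPM at 30°C, and *HSP10*, with 240 and 0.698 against 804 and 581 CPM, were lower in both libraries at 20°C, with log2 fold changes of −1.68 (SE 1.34) and −2.65 (SE 1.64). *HSP104*, with 900 and 1172 against 253 and 652 CPM, was higher in both at 20°C, with 1.16 (SE 0.68). Its 253 CPM at 30°C lay below the untagged library of that replicate (471 CPM). *HSP60*, with 975 and 599 against 1430 and 1015 CPM, was lower in both at 20°C, with −0.65 (SE 0.63). The CPM of *HSP42* and *HSP78* overlapped between temperatures, with 0.42 (SE 1.38) and −0.19 (SE 1.66), and both changed sign when single libraries were left out. None of the 7 members passed the test (adjusted p = 1 for each, edgeR's quasi-likelihood test), nor did any of the 4831 genes (0%). At an unadjusted p under 0.05 stood 0 members and 2.38% of the genes, and DESeq2 called 0 members and 29 genes.

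**Figure D5:**
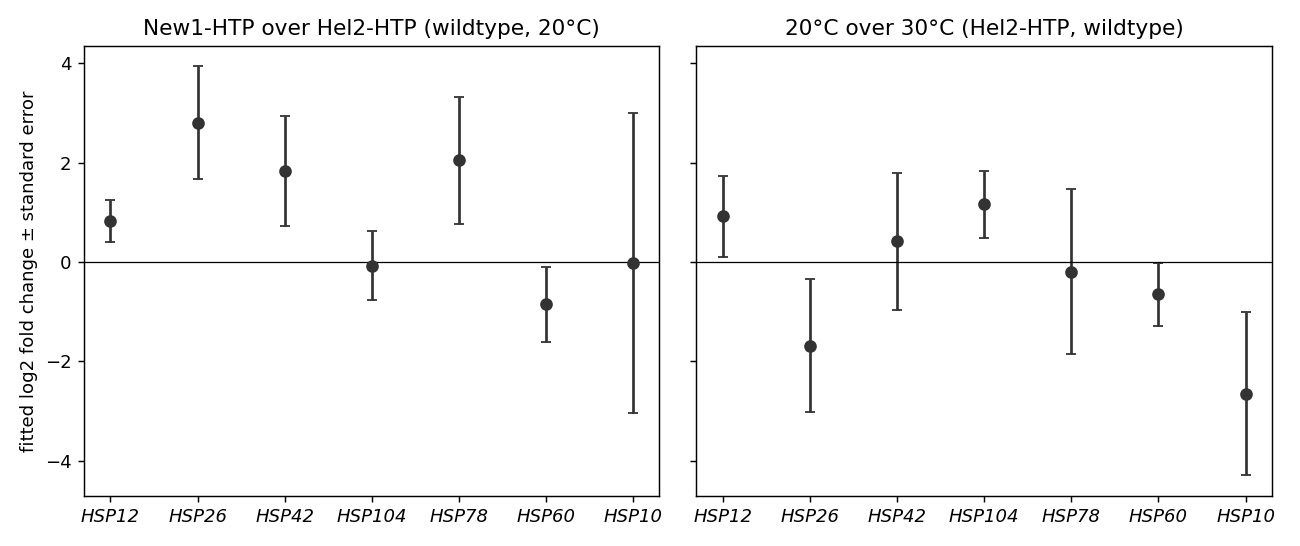
Fitted log2 fold change of each mRNA, with its standard error, for New1-HTP over Hel2-HTP in wildtype at 20°C (left) and for 20°C over 30°C with wildtype Hel2-HTP (right), n = 2 libraries per group. Points are edgeR estimates, with standard errors derived from its F statistic. *HSP26* is highest on the left at 2.81 and *HSP10* lowest on the right at −2.65, and no member passed the test in either comparison.

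Other chaperones and stress genes were examined as whole lists. The first held 21 genes linked to the heat shock factor, most of them for chaperones and cochaperones, with the gene of the factor itself included. Of the 21, 20 were tested in the Hel2-HTP fit. At 20°C, 0 of the 20 were called higher in *new1Δ* and 2 lower, where 0.683% of all 4831 genes were called higher and 0.704% lower. The median of the list was −0.95 against −1.12 over all genes. The 2 were *YDJ1* (YNL064C, chromosome XIV, 505868 to 507097, minus strand), an Hsp40 cochaperone of Hsp70, and *CPR6* (YLR216C, chromosome XII, 572096 to 573211, minus strand), a peptidyl-prolyl isomerase that binds Hsp90. *YDJ1* had 0 reads in both *new1Δ* libraries and 403 and 644 in wildtype (adjusted p = 5.2e-05, edgeR's quasi-likelihood test). *CPR6* had 0 against 152 and 273 reads (adjusted p = 0.036, edgeR's quasi-likelihood test). At 30°C none of the 20 was called, with 2 at an unadjusted p under 0.05 and a median of 0.05.

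The second list held 23 genes of the general stress response linked to Msn2 and Msn4, factors that induce *HSP12*. The genes of both factors are among the 23. At 20°C, 0 of the 23 were called higher in *new1Δ* and 2 lower, against the same shares of all genes (0.683% and 0.704%), with a median of −0.84. *HOR7* (YMR251W-A, chromosome XIII, 774752 to 774931, plus strand), which encodes a small protein induced by hyperosmotic stress, gave 161 and 371 *new1Δ* reads and 1833 and 3925 wildtype reads, a log2 fold change of −2.48 (SE 0.56, adjusted p = 0.0016, edgeR's quasi-likelihood test). *GRE3* (YHR104W, chromosome VIII, 323409 to 324392, plus strand), an aldose reductase gene, had 0 against 130 and 290 reads (adjusted p = 0.013, edgeR's quasi-likelihood test). At 30°C none was called, with 2 at an unadjusted p under 0.05 and a median of 1.14 against 0.13 over all genes. No gene of either list was called higher in *new1Δ* at either temperature. The calls of *YDJ1*, *CPR6*, *HOR7* and *GRE3* were all lost when either pair of replicates was left out. The log2 fold change of *HOR7* was then −1.63 without replicate 1 and −3.10 without replicate 2. Without the replicate block, the adjusted p in edgeR was 0.0083 for *YDJ1*, 0.079 for *CPR6*, 0.051 for *GRE3* and 0.2 for *HOR7*. *CPR6* and *GRE3* were also lost with cDNA numbers and with only the libraries compared, *CPR6* with DESeq2 size factors, and *HOR7* with at least 10 reads in every library, while the frequent loss of mRNAs from the 20°C libraries stands beside the 3 genes with 0 reads. Of 5 further genes with an HSP name, 3 were tested and none was called in any comparison, with 0 at an unadjusted p under 0.05. Between baits, none of the first 2 lists was called (medians 0.24 and −0.35, 1 and 0 genes at an unadjusted p under 0.05), nor between temperatures (medians −0.12 and 0.35, 0 and 1).

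The genes whose profile over the 10 tagged libraries was most like that of *HSP12* were *QCR7*, *RVS161* and *NCE103*, with Pearson correlations of log2 CPM of 0.955, 0.945 and 0.925 among 1625 genes ranked. The libraries share strains and depth, and these correlations are a description. *QCR7* (YDR529C, chromosome IV, 1496165 to 1496548, minus strand) encodes a subunit of mitochondrial complex III, *RVS161* (YCR009C, chromosome III, 130745 to 131542, minus strand) an amphiphysin-like protein of endocytosis, and *NCE103* (YNL036W, chromosome XIV, 559814 to 560479, plus strand) carbonic anhydrase. In Hel2-HTP libraries at 30°C, *NCE103* had 651 and 325 reads in *new1Δ* against 0 and 68 in wildtype, *QCR7* had 205 and 188 against 0 and 44, and *RVS161* had 426 and 171 against 4 and 43. All 3 were low in the wildtype library of replicate 1 at 30°C, as was *HSP12*. All 3 end in the lysine codon AAA, as do 198 of the 1625 genes ranked (12.2%), whereas the first gene with the AAG codon of *HSP12* was in place 50. The other members were less alike, with 0.506 for *HSP104*, −0.010 for *HSP42*, −0.350 for *HSP26*, −0.492 for *HSP78* and −0.585 for *HSP60*, and *HSP10* had too few reads to be ranked.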

How the data were processed

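Hel2-HTP, New1-HTP and untagged CRAC libraries were analysed from 14 deposited tables. The authors aligned the reads with Novoalign (version not given in the sources used here) and counted them with pyReadCounters (1.4.2 for the 30°C libraries, 1.4.4 for the others) on Ensembl gene models extended by untranslated regions. The deposited counts are sense reads per feature, without collapsing of PCR copies and without normalization. The numbers of distinct cDNAs, also counts deposited by the authors, include antisense reads. The RPKM values that the authors deposited were used only to derive feature lengths. Counts hold no positions, so reads on coding sequence and untranslated regions cannot be told apart.

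Of 6454 protein-coding features, 5862 matched the R64 annotation by name. After 18 mitochondrial or incomplete ones and 6 that share a locus were set aside, 5838 genes remained, and the unused features held 1.03% to 5.48% of the mRNA reads of a library. The test was that of edgeR 4.0.16 under R 4.3.3 (TMM, filterByExpr, quasi-likelihood F-test, Benjamini-Hochberg adjustment, threshold 0.05). The 8 Hel2-HTP libraries entered 1 fit with replicate pairs within temperature as a block, the same 8 without pairs gave the comparison of temperatures, and the 6 tagged libraries at 20°C gave the comparison of baits. The scripts were tested on simulated data. Libraries at 0 were given a limit of 3 reads. Pair ratios used a pseudocount of 1. The pairs follow the methods of the study, with 1 sequencing run per replicate and a ratio per replicate. In a check, the deviations of 2 same-numbered libraries had a correlation across genes of 0.028 at 20°C and of 0.0521 at 30°C (4831 genes), and of 0.00246 between baits (4149 genes). For baits and temperatures, p-values rest on the spread between replicates within the groups of the fit. In the *new1Δ* fit with the block, they rest on how the strain difference varied between pairs at both temperatures. In each fit, edgeR also draws on the spread of other genes.

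The members, gene lists and tests were chosen with earlier results of these data known. Beside the members, the text names genes of the lists past the threshold and the 3 genes most like *HSP12*, among those with at least 10 reads in at least 8 tagged libraries. Alternatives were DESeq2 1.42.0, its size factors in edgeR, no filter, at least 10 reads in every library, only the libraries compared, cDNA numbers, the block left out or added, pair ratios with pseudocounts of 0.1, 1 and 5, and each replicate left out. Tables and plots used matplotlib 3.10.9, numpy 2.4.6 and pandas 2.3.3 under Python 3.11.15.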

Additional observations from a re-analysis of the deposited data

Results flagged for a closer look

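Antisense reads, which the comparisons did not use, appeared on 3 of the members, against 0 in the untagged libraries, most of which are far shallower than the tagged ones. On 2 members they exceeded the 3 reads that a count of 0 allows. *HSP60* had 109 and 94 antisense reads in the wildtype Hel2-HTP libraries at 20°C and 41 in New1-HTP replicate 2. *HSP12* had 9 antisense reads in wildtype Hel2-HTP replicate 2 at 30°C. Below that limit, *HSP78* had 2 in *new1Δ* Hel2-HTP replicate 2 at 20°C, where it also had 2 sense reads, and *HSP60* had 1 in replicate 1 of that group. The numbers of cDNAs given for these mRNAs include antisense reads.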

How the results depend on the processing

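The fitted log2 fold change of *HSP12* in *new1Δ* stayed above 0 under every alternative run. At 20°C (2.63) it was 3.0 with DESeq2 and with its size factors, 2.71 without a filter and with only the libraries compared, 2.94 with at least 10 reads in every library, 2.87 with cDNA numbers, 2.61 with no replicate block and 2.45 to 3.04 with a replicate left out. As a median-centred pair ratio it was 3.89, 4.33 and 3.28 with pseudocounts of 1, 0.1 and 5. At 30°C (5.51) it was 4.41 with no replicate block and otherwise 5.05 to 5.45, and 3.89 to 7.08 with a replicate left out. Genes called at 20°C (67) numbered 251 with DESeq2, 40 with at least 10 reads in every library, 38 with only the libraries compared, 20 with no replicate block and 19 to 25 with a replicate left out. With DESeq2 size factors, 46 were higher and 23 lower in place of 33 and 34, and the median of all genes moved from −1.12 to −0.77. At 30°C (24), the numbers were 60, 8, 1, 5 and 7 to 20 in that order, and 38 with cDNA numbers. Calls between baits (2) numbered 14 with DESeq2, 4 without a filter, 0 with only the libraries compared, 5 with a replicate block and 3 to 10 with a library left out. Calls between temperatures (0) numbered 29 with DESeq2, 3 with its size factors, 8 without a filter, 4 with at least 10 reads in every library and 1 to 20 with a library left out, when 0 to 1 members were called (*HSP12*). Between baits, *HSP104* (−0.07) turned to 0.05 with DESeq2 and with its size factors, 0.03 with at least 10 reads in every library, 0.01 with cDNA numbers and between −1.55 and 0.65 with a library left out. *HSP10* (−0.02) turned to 0.01 with DESeq2 and with its size factors, 1.88 with a replicate block and between −1.05 and 6.88 with a library left out, where *HSP42* ranged from −0.10 to 2.64 and *HSP78* from −0.22 to 2.90. Between temperatures, *HSP78* (−0.19) turned to 0.30 with cDNA numbers and ranged from −0.89 to 0.40 with a library left out, *HSP42* from −0.14 to 0.85 and *HSP12* from −0.06 to 4.35. The causes were not tested. *HSP26* and *HSP10* were at 0 reads in *new1Δ* at 20°C, where 3 reads were 4.38 and 9.08 CPM. Whether depth or the loss of mRNAs from these libraries had a part in this was not tested.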
